A study of Mus musculus with 21 samples.

Results

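Cells of the mouse stomach corpus, the acid-secreting body of the organ, had been sorted by flow cytometry on green fluorescent protein reporting the Lgr5 gene, and the cells with low signal were compared here with the negative cells from tamoxifen-injected mice. The comparison takes 8 of the study's 21 arrays, 4 of low cells and 4 of negative cells, chosen by their labels, and was described across 22180 genes. The tamoxifen mice had received 0.27 mg of the drug per g of weight, and their cells were taken 24 hours later. Tamoxifen high cells (4 arrays) and control high, low and negative cells (3 arrays each, from uninjected mice) are used beside them. No vehicle-injected group was used here, so the drug and the injection cannot be told apart. The labels give the reporter, the corpus origin and the treatment, and give no strain, age, sex or Cre allele. They call the arrays of a group technical replicates from individual sorting runs, so p-values measure the spread between sorts. The source field of the 3 control negative arrays reads low, while their titles and population field read negative; their mean Lgr5 level was 4.41, against 7.56 in control low cells.

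The corpus gland holds several secretory lineages. Chief cells at the gland base make pepsinogen and other digestive proteins, parietal cells pump acid, mucous neck cells and surface pit cells make different mucins, and endocrine cells, among them the histamine-making enterochromaffin-like cells and the ghrelin and somatostatin cells, lie scattered along the gland. Lgr5, a receptor for R-spondins that strengthens Wnt signalling, marks stem cells at the base of many glands and a subset of chief cells in the corpus. High doses of tamoxifen are known to injure the corpus epithelium of mice, with loss of parietal cells.

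Levels below are the deposited log2 signal, on which 1 unit is a 2-fold difference, and differences are low minus negative. As a mark of background, the 95th percentile of the mean level of 1105 olfactory receptor genes was 4.16. Lgr5 itself checks the gates: it read 6.54, 7.01, 6.75 and 6.49 in the 4 low arrays, against 4.42, 4.81, 4.56 and 4.58 in the 4 negative arrays, and averaged 8.43 in tamoxifen high cells. The order of the 3 gates is the one the sort imposed. Epcam, an epithelial surface protein, averaged 9.33 ± 0.32 in low and 9.25 ± 0.12 in negative cells (SD, n = 4 each). Ptprc, the pan-leukocyte protein CD45, stood near background at 3.99 and 4.41, as did the endothelial Pecam1 at 4.15 and 4.04 and the fibroblast collagen Col1a1 at 4.32 and 4.07. Whole-array correlations over genes ran from 0.974 to 0.982 within low, from 0.963 to 0.982 within negative and from 0.958 to 0.974 between low and negative arrays.

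In the limma fit, 496 genes (2.24% of those tested) passed an adjusted p of 0.05. Of these, 113 (0.509%) were higher and 383 (1.73%) were lower in low cells. The median size was 1.95-fold for the higher genes and 2.60-fold for the lower ones, and the largest were 18.8-fold and 37.6-fold. For 155 of the 383 lower genes the low cells' mean lay at or under background. Their folds are bounds, except for 19 whose negative mean lay there too, for which no bound can be given. Of the 113 higher genes, 20 had a negative mean at or under background, and for 9 the low mean lay there as well. Of all genes tested, 1645 (7.42%) had 4 low arrays that did not overlap the 4 negative arrays. Without low replicate 1, low replicate 2 or negative replicate 3 the total was 315, 295 or 265 genes.

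Genes of histamine and hormone storage were among those that fell most. Of 20 measured endocrine markers, 11 fell and none rose in low cells, with a median difference of -2.36 against 0.04 over all genes. The members that fell were Hdc, Slc18a2, Chga, Chgb, Pcsk1, Scg5, Scg3, Cckbr, Rfx6, Slc18a1 and Syp. The whole list's summed signal, on the log2 scale, ran from 10.6 to 13.3 in low arrays and from 13.7 to 14.8 in negative arrays. Signals were summed before taking the log, so the brightest genes weigh most, among them Gast, which was high in single arrays of both populations (below). In sorted bulk cells, fewer cells of a type and less RNA per cell cannot be told apart. Without low replicate 2 or negative replicate 3, 7 of these members were called.

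Hdc encodes histidine decarboxylase, the enzyme that makes histamine. It read 5.31, 5.32, 4.70 and 5.69 in low cells, against 10.57, 9.81, 9.68 and 8.72 in negative cells. Every low array lay more than 3 units under the lowest negative array, a 21.7-fold difference in means (log2 -4.44 ± 0.39 SE, adjusted p = 6.05e-07, limma). Slc18a2, the transporter that loads monoamines such as histamine into vesicles, read 5.59, 5.58, 5.14 and 5.73 in low cells, against 9.68, 10.83, 10.03 and 9.11 in negative cells. This was a 21.1-fold difference (adjusted p = 4.61e-07), again with no overlap. Cckbr, the gastrin receptor that these histamine cells carry, read 4.93, 4.44, 4.91 and 4.73 against 7.50, 8.56, 8.02 and 5.68, a 6.46-fold difference (adjusted p = 0.000285). Negative replicate 4 was its lowest negative array, still above every low array.

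Granule proteins shared by most endocrine cells fell as well. Chga, chromogranin A, read 9.38, 8.71, 7.17 and 9.28 in low cells, against 12.76, 12.73, 12.50 and 11.09 in negative cells, a 12.4-fold difference (adjusted p = 0.0035). Pcsk1, which cuts prohormones, read 3.97, 3.74, 3.29 and 6.57 against 7.70, 8.47, 7.85 and 7.72 (adjusted p = 0.00155). Scg5, a chaperone of a prohormone convertase, averaged 4.04 ± 0.70 in low and 7.51 ± 0.49 in negative cells (SD, n = 4 each), at least 10.2-fold lower (adjusted p = 2.0e-06). Low replicate 4 was the highest low array for Pcsk1, Scg5, Scg3, Rfx6, Syp and Chgb. Chgb, chromogranin B, read 7.30, 6.68, 4.94 and 10.13 in low cells against 10.80, 10.93, 11.13 and 10.80 in negative cells, and its call (adjusted p = 0.0368) was lost in 7 of the 8 fits that left out an array, all but the one without low replicate 4. Syp, synaptophysin of small vesicles, fell by 1.63 (adjusted p = 0.000889). Rfx6, a transcription factor of endocrine differentiation, fell at least 5.48-fold, with a low mean of 3.97 under background. Low replicate 4 at 5.16 overlapped negative replicate 4 at 4.91 for this gene, and without low replicate 2 or negative replicate 3 its adjusted p rose above 0.05, to as much as 0.0674.

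The peptide hormones themselves did not pass the test. Ghrl, ghrelin, read 10.95, 10.73, 6.76 and 10.59 in low cells, against 12.52, 12.84, 12.59 and 12.49 in negative cells (difference -2.85 ± 0.81 SE, adjusted p = 0.076), with no overlap. Sst, somatostatin, averaged 9.62 ± 0.09 in low and 11.34 ± 0.60 in negative cells (SD, n = 4 each; adjusted p = 0.283), also with no overlap. Both hormones were well above background in low cells too. Gast, gastrin, a hormone of the antrum rather than the corpus, read 5.15, 5.48, 5.63 and 12.40 in low cells and 12.04, 11.85, 7.61 and 5.45 in negative cells. Single arrays of both populations thus held a high gastrin level, low replicate 4 and negative replicates 1 and 2, and the part of this in the endocrine differences was not tested. The transcription factors Neurod1, Pax6, Isl1 and Insm1 differed by -0.20, -0.40, 0.33 and -0.13, and none was called.

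**Figure D1:**
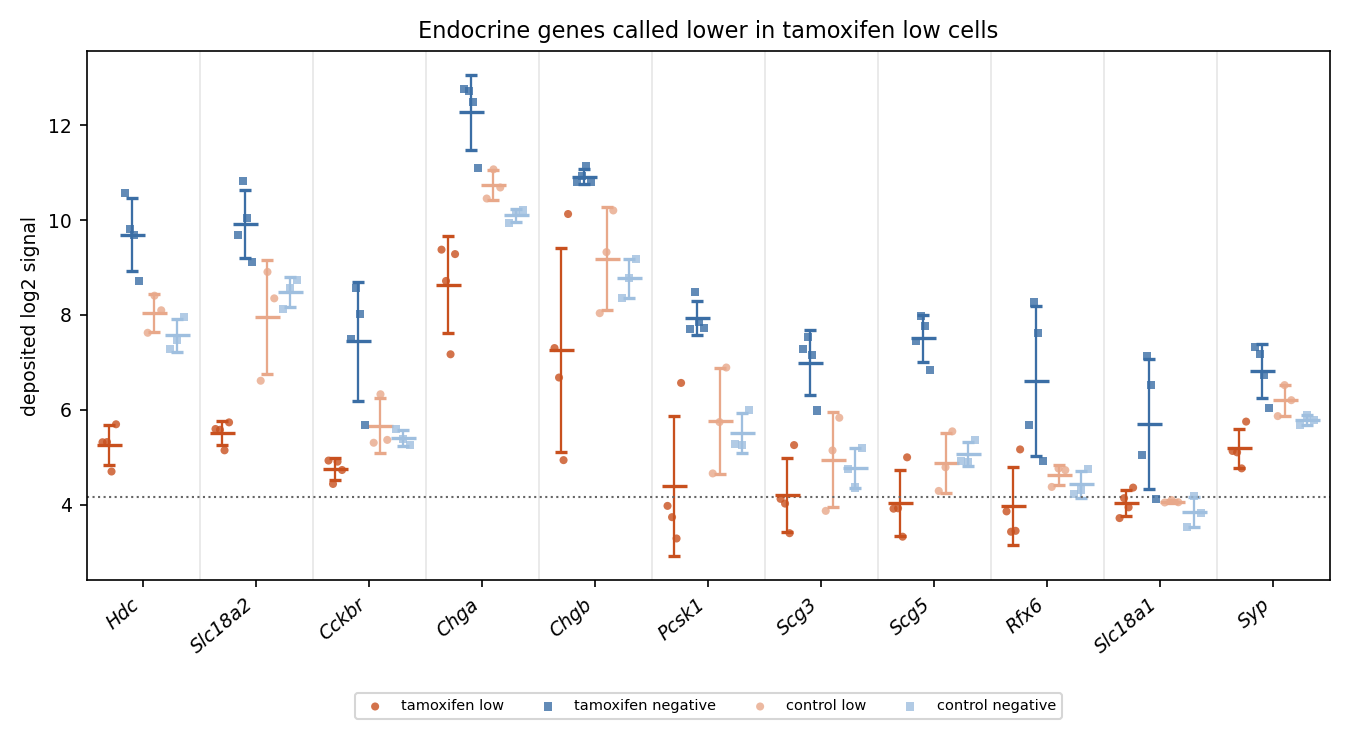
Deposited log2 signal (vertical axis) of the 11 endocrine genes called lower in tamoxifen low cells, with 1 point per array for tamoxifen low, tamoxifen negative, control low and control negative cells from left to right. Long dashes and bars are the mean ± SD (n = 4, 4, 3 and 3) and the dotted line is the background level of 4.16; for Hdc the tamoxifen means are 5.26 and 9.69 and the control means 8.04 and 7.57.

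Promoters of the endocrine genes are shown because several of these genes, called or not, share a letter sequence. The motif searched was TGACGTCA, the palindromic cyclic AMP response element, which reads the same on both strands. Of 18 endocrine genes with a RefSeq promoter (250 bases before to 50 after the start, GRCm38.p6), 6 held it (33.3%), against 2.65% of the 16990 tested genes with a promoter. They were Chgb, Pcsk1 and Slc18a2, called lower, and Scg2, Pax6 and Sst, not called. The endocrine genes called lower thus held the motif in 3 of 10 promoters (30.0%), no more often than the whole endocrine list. Over every called gene, 12 of 297 lower genes (4.04%) and none of 93 higher genes held the motif, and the 12 include the 3 endocrine genes. A match describes letters and is not a site shown to be used. The 120 bases from 110 before to 10 after the start follow for the 3 called genes, 5′ to 3′ on the plus strand, with the motif in capitals; they lie at chr2:132781532-132781651 (Chgb), chr13:75089747-75089866 (Pcsk1) and chr19:59260768-59260887 (Slc18a2).
Chgb: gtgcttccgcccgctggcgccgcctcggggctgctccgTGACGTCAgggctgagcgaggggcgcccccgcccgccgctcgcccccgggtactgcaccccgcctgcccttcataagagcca
Pcsk1: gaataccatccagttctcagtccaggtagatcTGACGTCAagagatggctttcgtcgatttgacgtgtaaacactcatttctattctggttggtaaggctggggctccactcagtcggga
Slc18a2: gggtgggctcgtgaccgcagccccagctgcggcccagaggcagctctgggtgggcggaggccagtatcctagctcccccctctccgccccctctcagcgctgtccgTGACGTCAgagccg
The motif begins 72 bases before the start in Chgb, 78 before in Pcsk1 and 4 before in Slc18a2.

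Genes outside the endocrine list made up the rest of the 10 largest falls. Vtn, vitronectin, an adhesive plasma protein, read 5.97, 5.45, 4.49 and 5.95 in low cells, against 11.27, 11.44, 10.83 and 9.24 in negative cells, a 37.6-fold difference (adjusted p = 4.71e-08). Serpina7, thyroxine-binding globulin, read 2.81, 2.97, 3.13 and 3.39 against 8.49, 8.08, 7.63 and 7.47, at least 13.6-fold lower (adjusted p = 1.73e-10). Ahsg, fetuin-A, averaged 5.15 ± 0.39 in low and 9.03 ± 0.84 in negative cells (SD, n = 4 each; adjusted p = 4.15e-06). All of these are secreted proteins best known from liver, and none of their 4 low arrays overlapped the negative arrays. Pappa2, a protease that cuts insulin-like growth factor binding proteins, fell at least 11.1-fold (adjusted p = 2.0e-06). Resp18, named for its regulation in endocrine cells, fell by 4.07 (adjusted p = 0.0161, up to 0.0707 without low replicate 2 or 3 or negative replicate 3). Gprasp2, which binds G protein-coupled receptors on their way to the lysosome, fell at least 17.9-fold, and Lhfpl5, a membrane protein of the inner ear's hair cells, fell by 4.11.

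Cel, a bile salt-dependent lipase, completed these 10 and is also a marker of pancreatic acinar cells. It read 4.29, 4.25, 4.66 and 4.22 in low cells, against 10.36, 9.22, 8.99 and 8.19 in negative cells (28.5-fold, adjusted p = 4.06e-08). Ptf1a, the transcription factor that directs acinar fate in the pancreas, averaged 3.13 ± 0.41 in low and 6.62 ± 0.46 in negative cells (SD, n = 4 each) with no overlap, at least 5.50-fold lower (adjusted p = 9.51e-09). Of 14 acinar markers, 4 fell, the other two being Ctrb1 (by 1.92) and Zg16 (by 0.79, called in 1 of the 8 fits without an array). The list's median difference was -0.003, and 5 of the 14 markers were above background in low cells and 6 in negative cells. Its summed log2 signal ran from 10.2 to 10.8 in low and from 10.5 to 11.9 in negative arrays.

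Some surface pit cell genes also fell in low cells. Of 16 markers, 4 fell and none rose, with a median difference of -0.50. Muc5ac, the main surface mucin, read 8.40, 8.47, 6.84 and 8.04 in low cells, against 10.80, 9.98, 10.68 and 10.14 in negative cells, a 5.50-fold difference (adjusted p = 0.0101). Gkn1, gastrokine 1 of the surface mucus, read 9.77, 10.08, 9.15 and 10.03 against 12.11, 11.77, 12.23 and 12.15, a 4.94-fold difference (adjusted p = 0.00771). The 4 arrays of each population stood apart for both genes. Mucl3, a mucin-like protein, fell by 1.94 (adjusted p = 0.0141, up to 0.0576 without low replicate 3 or negative replicate 3), and the sulfotransferase Sult1c2 fell by 0.87 (adjusted p = 0.0234, above 0.05 in 4 of the 8 fits without an array). Tff1, the surface trefoil peptide, averaged 10.77 in low and 12.30 in negative cells and Gkn2 9.95 and 12.12, with adjusted p of 0.149 and 0.0676. The summed log2 signal of the list ran from 14.1 to 14.3 in low and from 14.9 to 15.1 in negative arrays. Without negative replicate 3, 2 of the 4 members were called.

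Enzymes of alcohol, quinone and sulfate metabolism fell in low cells as well. Of 31 cytochrome P450 and conjugation genes, 5 fell and 1 rose. Adh7, the stomach alcohol dehydrogenase that also oxidises retinol, read 6.33, 5.32, 4.16 and 4.19 in low cells, against 8.49, 5.91, 8.36 and 6.95 in negative cells (difference -2.43 ± 0.49 SE, adjusted p = 0.00736). Its groups overlap: low replicate 1 exceeded negative replicate 2, and in a fit on the compared arrays alone its adjusted p was 0.0701. Sult1b1, a sulfotransferase of phenols and thyroid hormone, fell by 2.34 (adjusted p = 0.000518), Cyp2c65 by 2.28 (adjusted p = 0.0217) and Sult1d1 by 1.41 (adjusted p = 0.034). Without an array, Cyp2c65 lost its call in 4 of 8 fits and Sult1d1 in 5. Nqo1, a quinone reductase induced by the factor NRF2, read 5.97, 5.73, 5.08 and 5.74 against 9.02, 6.99, 7.86 and 7.58, a 4.70-fold difference (adjusted p = 0.00235). It and the malic enzyme Me1 were the 2 of 18 NRF2 targets called, both lower, and Me1 lost its call in 5 of those fits. Cyp4v3, a fatty acid hydroxylase, was the 1 gene of the metabolism list that rose, by 1.39 (adjusted p = 0.0209, above 0.05 in 4 of those fits).

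Several other lists held 1 or 2 genes that fell. Of 21 gastric transcription factor genes Klf4 and Rfx6 fell and none rose, with a median of -0.07. Of 31 cytokine and NF-kB genes Il18 fell and Cxcl1 rose, with a median of 0.16. Of 26 BMP and TGF-beta genes Id1 and Id2 fell and Tgfb3 rose, with a median of 0.0045. Of 13 hedgehog genes Shh fell and none rose, with a median of 0.12. Over all genes, 1.73% fell and 0.509% rose. In these 4 lists, in the order given, 4, 12, 9 and 3 genes had an unadjusted p under 0.05 in limma (19.0%, 38.7%, 34.6% and 23.1%), against 12.5% of all genes. Klf4, a transcription factor of differentiated epithelium, read 7.53, 7.19, 7.41 and 7.66 in low cells, against 10.04, 8.79, 9.17 and 9.13 in negative cells, a 3.57-fold difference (adjusted p = 0.000197). Il18, an epithelial cytokine of the interleukin 1 family, averaged 6.72 ± 0.71 in low and 8.73 ± 0.42 in negative cells (SD, n = 4 each; adjusted p = 0.00526). Neither gene's arrays overlapped. Id1, a BMP-induced inhibitor of basic helix-loop-helix factors, fell by 1.52 (adjusted p = 0.00463), and Id2 by 0.88 (adjusted p = 0.0361, above 0.05 in 7 of the 8 fits without an array). Shh, the hedgehog ligand made by the corpus epithelium, fell by 1.15 (adjusted p = 0.0455, above 0.05 in 6 of those fits). Sytl2, a Rab27 effector of granule docking, fell by 1.84 (adjusted p = 0.0039).

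Iron genes moved both ways. Hamp, hepcidin, the hormone that makes cells hold back iron by degrading ferroportin, read 8.32, 6.13, 7.17 and 7.03 in low cells, against 10.13, 10.82, 10.09 and 9.94 in negative cells, an 8.47-fold difference (adjusted p = 3.37e-05). Its mean was 2.91 in tamoxifen high cells, 2.20 in control low cells and 2.35 in control negative cells, all under background. The transferrin receptor Tfrc averaged 6.62 ± 0.21 in low and 7.95 ± 0.41 in negative cells (SD, n = 4 each; adjusted p = 0.00926). Cybrd1, a ferric reductase, averaged 7.87 ± 0.44 and 6.46 ± 0.38 (adjusted p = 0.0298, above 0.05 in 6 of the 8 fits without an array). These were the 3 called of 20 iron handling genes.

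Part of the cholesterol synthesis pathway fell. Of 17 genes, 3 fell, none rose and 16 had a negative sign, with a median of -0.64. Sqle, squalene epoxidase, averaged 7.02 ± 0.24 in low and 8.34 ± 0.29 in negative cells (SD, n = 4 each) with no overlap, a 2.50-fold difference (adjusted p = 0.0052). Cyp51, which demethylates lanosterol, and Insig1, a sterol sensor, fell by 0.94 and 0.82, and their adjusted p rose above 0.05 in 3 and 4 of the 8 fits without an array. Proliferation genes had 1 call in limma's adjusted test over 2 lists. All 26 replication genes and all 28 mitotic genes had a negative sign, with medians of -0.64 and -1.30, and 27 of the mitotic genes had an unadjusted p under 0.05, against 12.5% of all genes. Mcm10, a replication initiation factor, fell by 1.15 (adjusted p = 0.0154, above 0.05 in 3 of those fits). Mki67, the proliferation antigen Ki-67, read 6.14, 6.73, 6.56 and 6.26 in low cells, against 7.19, 6.58, 8.41 and 9.25 in negative cells, with an adjusted p of 0.245. Negative replicates 1, 3 and 4 lay above all low arrays, while negative replicate 2 lay among them.

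Mast cell proteases fell near the background. Of 12 mast cell and basophil markers, 4 fell, and the list's summed log2 signal ran from 7.25 to 7.49 in low and from 7.54 to 8.23 in negative arrays. Mcpt2, a protease of mucosal mast cells, read 3.22, 3.26, 2.95 and 2.93 in low cells, all under background, against 4.59, 4.15, 5.79 and 5.59 in negative cells, at least 1.83-fold lower (adjusted p = 0.00545). Mcpt1, of the same cells, fell at least 2.21-fold (adjusted p = 0.0183, lost in 4 of the 8 fits without an array and up to 0.0921 in them), and Cpa3 and Tpsb2 had adjusted p of 0.0249 and 0.0439, lost in 6 and 7 of those fits. The T and natural killer cell, B cell, macrophage, fibroblast and endothelial lists had no called member in limma. Of their 89 markers together, 12 had an unadjusted p under 0.05, against 12.5% of all genes, but the lists were uneven. The macrophage, monocyte and dendritic list held 6 of its 20 (30.0%), with a median difference of -0.25. The T and natural killer list held 3 of 17, and the B cell, fibroblast and endothelial lists held 1 each, of 12, 22 and 18. The neutrophil list had Retnlg, at least 1.05-fold lower, whose call was lost in 4 of the 8 fits without an array (adjusted p up to 0.0912). In that list 5 of 13 markers had an unadjusted p under 0.05 in limma, and the median difference was -0.31.

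Of 25 endoplasmic reticulum folding and stress genes 2 fell and none rose, with a median of -0.19. In limma, 9 of the 25 had an unadjusted p under 0.05, against 12.5% of all genes. Sel1l, which serves the degradation of misfolded proteins, fell by 0.99 (adjusted p = 0.0117, or 0.0613 in a fit on the compared arrays alone) and Hyou1, a chaperone, by 0.58 (adjusted p = 0.0439, lost in all 8 fits without an array). Of 29 secretory pathway and vesicle genes, Tmed6 and Copz2 rose and Sytl2, Ssr1 and Syt7 fell, with a median of -0.02. Ssr1, of the translocon, fell by 0.93 and Syt7, a calcium sensor of vesicle fusion, by 0.97, with adjusted p of 0.0179 and 0.02, each lost in 4 of those fits. Hyou1 went the other way in control mice, where it differed by 0.86, and its interaction of -1.44 had an adjusted p of 0.00305. Single calls came from other lists too: Uchl1, a neuronal and endocrine ubiquitin hydrolase, fell by 1.32 (adjusted p = 0.0177), Pparg, a nuclear receptor of lipid metabolism, by 1.16 (adjusted p = 0.0328) and Hspb1, a small heat shock protein, by 1.39 (adjusted p = 0.0309). These calls were lost in 4, 6 and 6 of the 8 fits. The annexins split, with Anxa6 higher by 1.07 (adjusted p = 0.00155) and Anxa8 lower by 0.84 (adjusted p = 0.0396, lost in 5). Epgn, an epidermal growth factor receptor ligand, was called higher (adjusted p = 0.0396) at means of 3.19 in low and 2.61 in negative cells, both under background, and lost its call in all 8 fits without an array.

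**Figure D2:**
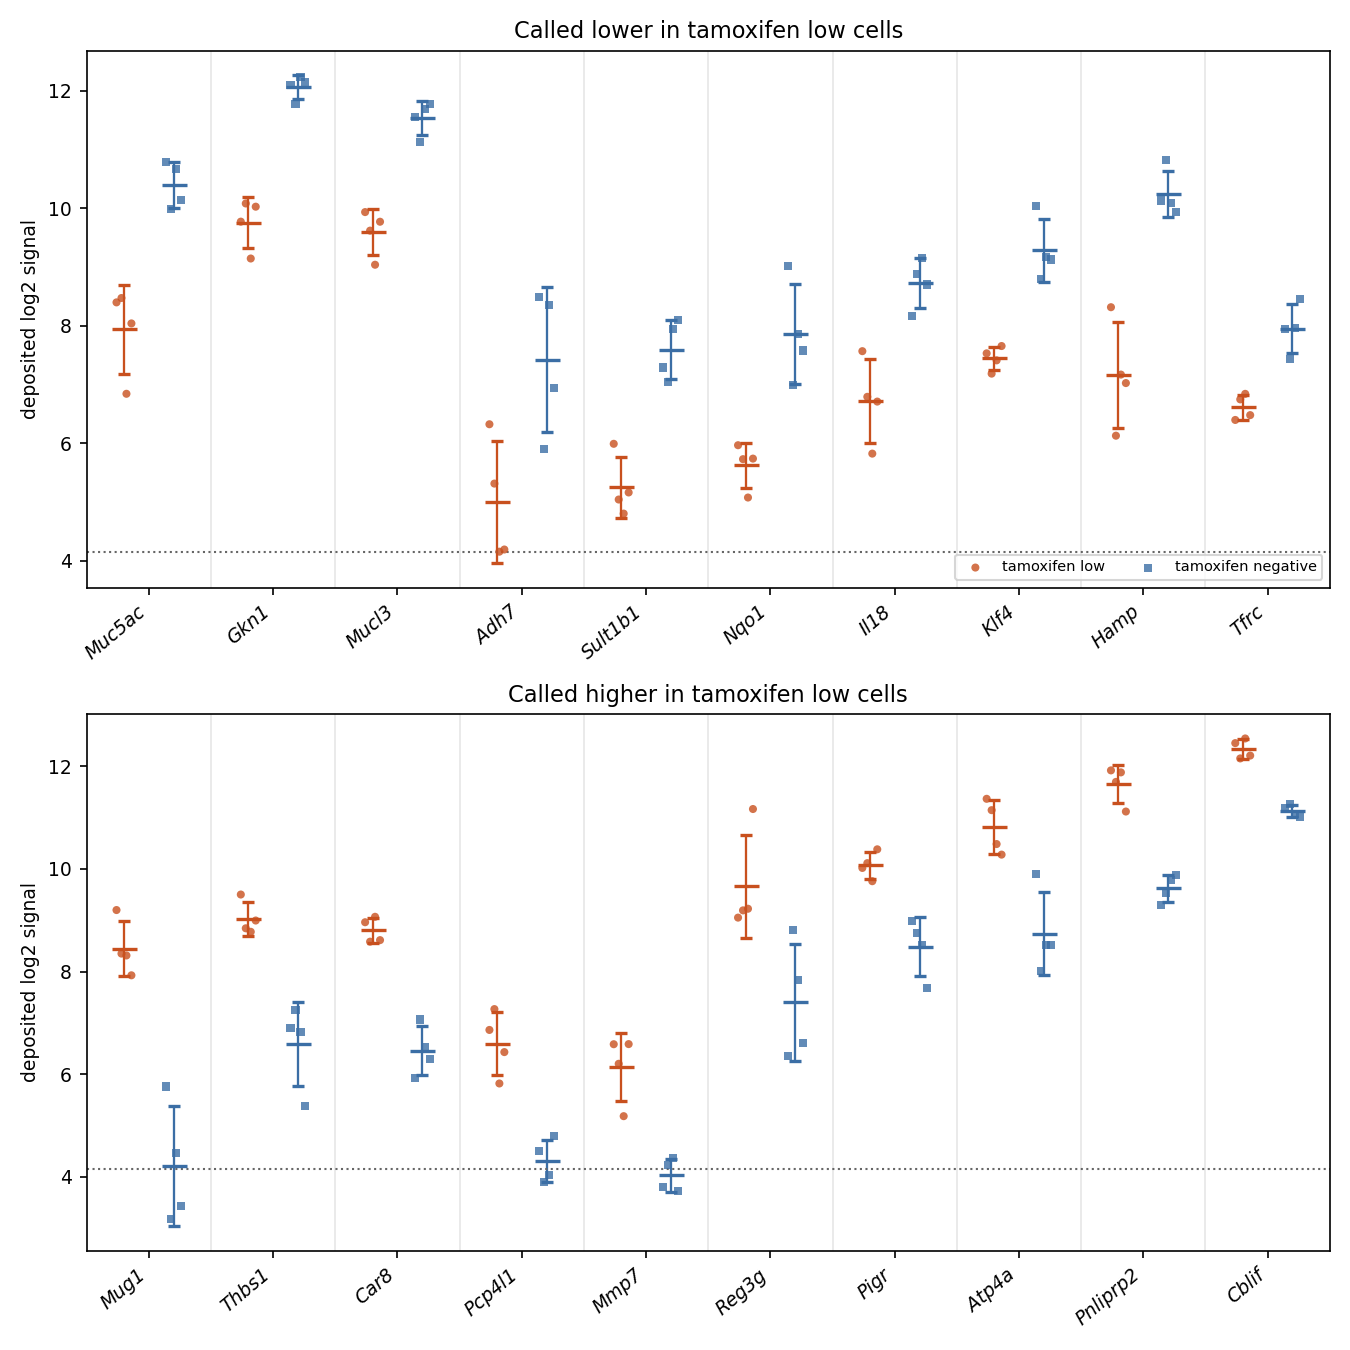
Deposited log2 signal (vertical axis) of 10 genes called lower and 10 called higher in tamoxifen low cells, with 1 point per array, low cells left of negative cells. Dashes and bars are the mean ± SD (n = 4 each) and the dotted line is the background level of 4.16; among the 20 genes Adh7 is the one whose arrays overlap.

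Among the 113 genes that rose in low cells were digestive proteins of chief cells. Of 18 chief cell markers, 4 rose and none fell, with a median of 0.22. Cblif, gastric intrinsic factor, which chief cells make in the mouse, averaged 12.33 ± 0.19 in low and 11.13 ± 0.12 in negative cells (SD, n = 4 each), a 2.31-fold difference (adjusted p = 8.85e-05). Chia1, an acidic chitinase, averaged 12.22 ± 0.14 and 11.21 ± 0.26, a 2.02-fold difference (adjusted p = 0.00035). Pnliprp2, a lipase related to the pancreatic one, read 11.92, 11.69, 11.88 and 11.11 against 9.29, 9.52, 9.78 and 9.88, a 4.08-fold difference (adjusted p = 0.00068). No array of one population overlapped the other for these genes. Copz2, a subunit of the COPI vesicle coat, rose by 1.36 (adjusted p = 0.0154, up to 0.0642 without low replicate 1 or negative replicate 2 or 3), and Tmed6, a cargo receptor of the early secretory pathway, by 1.53 (adjusted p = 0.00235).

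Not every chief cell gene followed. Pgc, progastricsin, averaged 13.33 ± 0.07 in low and 13.17 ± 0.10 in negative cells (SD, n = 4 each; adjusted p = 0.608), near the top of the scale. Bhlha15, the transcription factor MIST1 that builds the secretory machinery of mature chief cells, read 4.75, 5.12, 5.59 and 5.02 in low cells and 4.76, 4.92, 4.86 and 5.12 in negative cells (adjusted p = 0.884). Its mean in control low cells was 8.14, and 5.45 in control negative cells. The list's summed log2 signal ran from 15.2 to 15.3 in low and from 14.7 to 14.9 in negative arrays.

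An acid pump gene rose in low cells. Atp4a, the catalytic subunit of the proton pump, read 11.36, 11.14, 10.48 and 10.28 in low cells, against 9.91, 8.01, 8.51 and 8.51 in negative cells, a 4.22-fold difference (adjusted p = 0.0077) with no overlap. It was the 1 of 19 parietal cell markers called, though 16 had a positive sign and the median was 0.80. Of the 19, 13 had an unadjusted p under 0.05 in limma, against 12.5% of all genes. The median level of the list ran from 7.48 to 7.81 over the low arrays and from 6.33 to 7.15 over the negative arrays. Atp4b, the pump's other subunit, averaged 10.49 ± 0.51 and 8.53 ± 1.24 (SD, n = 4 each; adjusted p = 0.11), with low replicate 4 under negative replicate 1. In tamoxifen high cells the means were 7.90 for Atp4a and 6.12 for Atp4b. The parietal list's summed log2 signal ran from 12.95 to 13.49 in low and from 12.32 to 13.14 in negative arrays, and its part in the other differences was not tested.

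The gene that rose most was Mug1, a murinoglobulin, which traps proteases. It read 9.20, 8.35, 8.31 and 7.93 in low cells, against 5.76, 3.18, 4.46 and 3.44 in negative cells, an 18.8-fold difference (adjusted p = 7.7e-06). Thbs1, thrombospondin 1, a matrix protein that can activate TGF-beta, read 9.50, 8.84, 8.77 and 8.99 against 6.90, 7.25, 6.82 and 5.39, a 5.41-fold difference (adjusted p = 0.000169). Car8, a carbonic anhydrase relative without enzyme activity, read 8.96, 8.58, 9.06 and 8.61 against 5.93, 7.07, 6.53 and 6.30, a 5.08-fold difference (adjusted p = 3.19e-06). None of these overlapped. Pcp4l1, a small protein related to a calmodulin regulator of Purkinje cells, rose 4.86-fold (adjusted p = 0.00284). Rgs5, a brake on G protein signalling and a pericyte marker, averaged 7.04 ± 0.51 and 4.56 ± 0.67 (SD, n = 4 each; adjusted p = 0.0388), but leaving out any 1 of the 8 arrays ended its call. The smooth muscle and pericyte list had no other call among 17 markers, with summed log2 signal from 8.85 to 9.20 in low and from 8.42 to 8.73 in negative arrays.

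Genes of mucosal defence and repair also rose. Mmp7, the protease matrilysin, read 6.58, 6.20, 5.18 and 6.59 in low cells, against 3.80, 4.24, 4.37 and 3.72 in negative cells, at least 3.95-fold higher (adjusted p = 0.000135). Pigr, which carries IgA across epithelium, read 10.02, 10.11, 9.76 and 10.38 against 8.99, 8.75, 8.51 and 7.67, a 3.00-fold difference (adjusted p = 0.0193, above 0.05 in 5 of the 8 fits without an array). Reg3g, an antibacterial lectin, read 9.05, 9.19, 9.22 and 11.16 against 6.35, 8.80, 7.83 and 6.60 (adjusted p = 0.0335, above 0.05 in 6 of those fits). Low replicate 4 was the highest array for Reg3g. It was highest as well for Gkn3, a gastrokine of neck and isthmus cells, which read 10.01, 10.32, 9.80 and 11.57 against 9.78, 9.13, 7.85 and 6.48 (adjusted p = 0.0341, above 0.05 in 5 of those fits). Cldn4, a claudin of tight junctions, rose by 1.96 (adjusted p = 0.0191, above 0.05 in 4), the chemokine Cxcl1 by 0.87 (adjusted p = 0.0154, above 0.05 in 3) and Tgfb3, a TGF-beta ligand, at least 1.98-fold (adjusted p = 0.000942). Of 26 mucosal defence genes, Reg3g and Pigr rose and Hamp fell. Of 25 metaplasia and injury genes, Mmp7, Gkn3 and Pigr rose and none fell.

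Other metaplasia and injury markers were not called, although 12 of the 25 had an unadjusted p under 0.05, against 12.5% of all genes. Sprr1a, a cornified envelope precursor, averaged 11.59 ± 0.23 in low and 11.53 ± 0.14 in negative cells (SD, n = 4 each), against 5.85 in control low and 6.31 in control negative cells. Clusterin, Clu, read 12.21 to 12.37 in low and 11.90 to 12.07 in negative cells, with no overlap and an adjusted p of 0.322. Dmbt1, a secreted scavenger receptor, averaged 10.42 in low and 10.20 in negative cells. Among 23 Wnt target and stem cell genes, Lgr5, whose rise the sort imposed, and Rnf43 rose. Rnf43, a ubiquitin ligase that removes Wnt receptors, rose by 0.85 (adjusted p = 0.0287, above 0.05 in 5 of the 8 fits without an array). Axin2, a general Wnt target, differed by 0.31, Smoc2 by 0.25, Tnfrsf19 by 0.85 and Sox9 by 0.93, none of them called. The tuft cell list, with 14 markers that include Dclk1 (6.01 in low and 5.71 in negative cells), had no call in limma and 1 marker at an unadjusted p under 0.05. The interferon list had no call of 27, with 6 at an unadjusted p under 0.05 and a median of 0.51. Estrogen receptors and their targets, which tamoxifen acts on, had no call of 15, with 5 at an unadjusted p under 0.05 and a median of 0.15.

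The same pair of gates in control mice, on other arrays, gave 1168 called genes (5.27%), 411 higher (1.85%) and 757 lower (3.41%). Of the 113 genes that rose in tamoxifen low cells, 100 had the same sign in control mice and 48 were called higher there too. Of the 383 that fell, 229 had the same sign in control mice, 78 were called lower there, and the median control difference was -0.10. By comparison, 55.3% of all genes had a positive and 44.7% a negative control difference. For the 78 genes lower in both, the median difference was -1.37 in tamoxifen and -2.04 in control mice. Over 13872 genes above background in at least 1 of the 4 groups, the tamoxifen and control differences correlated at r = 0.41, a description across genes that share arrays and are not independent.

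The test of whether the low to negative difference itself differed between tamoxifen and control mice called 186 genes (0.839%), 38 with a higher and 148 with a lower value in tamoxifen mice (0.171% and 0.667%). Of the 383 lower genes, 97 were among the 148, and 3 of those 97 were called in control mice. Their median difference was -2.04 in tamoxifen and 0.19 in control mice. For 94 of the 97, tamoxifen low cells averaged under control low cells and tamoxifen negative cells above control negative cells. The 97 were chosen by differences of these same means, which favours such an arrangement, so the count is not a separate result. Hdc shows this arrangement with means of 5.26 in tamoxifen low and 9.69 in tamoxifen negative cells, against 8.04 in control low and 7.57 in control negative cells (interaction -4.91 ± 0.59 SE, adjusted p = 0.000207). The interaction was also called for Slc18a2 (-3.88), Scg5 (-3.28), Cckbr (-2.95) and Syp (-2.05), so for 5 of the 20 endocrine genes. Leaving out an array ended it in 3 of 14 fits each for Cckbr and Syp. For Chga it was -4.27 with an adjusted p of 0.0512. No endocrine gene was called by limma in control mice, where the list's median difference was 0.24. None had an unadjusted p under 0.05 there, against 15.4% of all genes. In tamoxifen high cells Hdc averaged 4.26, Slc18a2 3.97 and Chga 7.40, and in control high cells 4.61, 4.64 and 7.02, so these genes were low in high cells of uninjected mice as well. High against low tamoxifen cells, which shares the low arrays, had 715 called genes (3.22%), 323 higher (1.46%) and 392 lower (1.77%) in high cells, and with cyclic loess scaling 64.4% of the calls were higher in place of 45.2%.

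The strongest interactions outside the endocrine list went the same way. Gprasp2 differed by -4.47 in tamoxifen and 1.24 in control mice (interaction -5.71, adjusted p = 0.00182), Vtn by -5.23 and -0.18 (interaction -5.05, adjusted p = 0.000145), Cel by -4.83 and -0.24 (-4.59, adjusted p = 0.000145) and Serpina7 by -4.85 and -0.29 (-4.56, adjusted p = 1.54e-06). These genes also lead the falls in tamoxifen mice, which is partly built in, since the interaction contains the tamoxifen difference. Serpina7 averaged 3.79 in control low and 4.07 in control negative cells, both under background, so its control difference cannot show that they were equal. The tamoxifen low means of Serpina7 (3.07) and Gprasp2 (3.85) lay under background too, so their tamoxifen differences are not exact. Hamp had an interaction of -2.93 (adjusted p = 0.0127, above 0.05 in 1 of 14 fits without an array). Its control low and negative means of 2.20 and 2.35 were both under background. Bhlha15 differed by 0.20 in tamoxifen and 2.68 in control mice (interaction -2.48, adjusted p = 0.0232, above 0.05 in 6 of those fits), and Blm, a DNA helicase, by -0.31 and 2.98 (interaction -3.29, adjusted p = 0.000155).

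The positive interactions were led by mast cell, gasdermin and annexin genes. Mcpt2 differed by -1.94 in tamoxifen and -5.39 in control mice (interaction 3.45, adjusted p = 0.00512), with a negative-cell mean of 5.03 in tamoxifen and 8.32 in control mice. Its low-cell means of 3.09 in tamoxifen and 2.93 in control mice lay under background, so these differences are not exact. Gsdmc2 and Gsdmc3, gasdermins that form pores in membranes, lay at background in both tamoxifen populations and averaged 5.75 and 5.24 in control negative cells. Anxa3, a calcium-binding annexin, averaged 8.80 in tamoxifen low and 9.24 in tamoxifen negative cells, against 3.93 in control low and 7.62 in control negative cells (interaction 3.26, adjusted p = 0.00101). Pit genes kept their direction in both: Muc5ac differed by -2.46 in tamoxifen and -4.77 in control mice and Gkn1 by -2.31 and -3.31, with interaction adjusted p of 0.252 and 0.765. Mitotic genes had a median of -1.30 in tamoxifen and -2.34 in control mice, where 26 of the 28 were called lower.

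Of the 113 higher genes, 5 had a called interaction. Mmp7 differed by 2.11 in tamoxifen and 0.07 in control mice (interaction 2.04, adjusted p = 0.0249, above 0.05 in 8 of the 14 fits without an array), and Cyp4v3 by 1.39 and 3.63 (interaction -2.25, adjusted p = 0.029, above 0.05 in 11 of those fits). Mmp7 averaged 3.58 in control low and 3.51 in control negative cells, both under background, so its control difference cannot show that the populations were equal. Its tamoxifen negative mean of 4.03 lay under background too. Mug1 differed by 4.24 and 6.28, Pnliprp2 by 2.03 and 2.53, Cblif by 1.21 and 1.62, and Car8 by 2.35 and 2.10, with no called interaction. The control negative mean of Mug1 was 3.31, under background, so its control difference is not exact. Thbs1 differed by 2.44 in tamoxifen and 1.99 in control mice, although its levels were 9.03 and 6.59 in tamoxifen and 5.95 and 3.96 in control low and negative cells. The last of these levels lay under background.

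**Figure D3:**
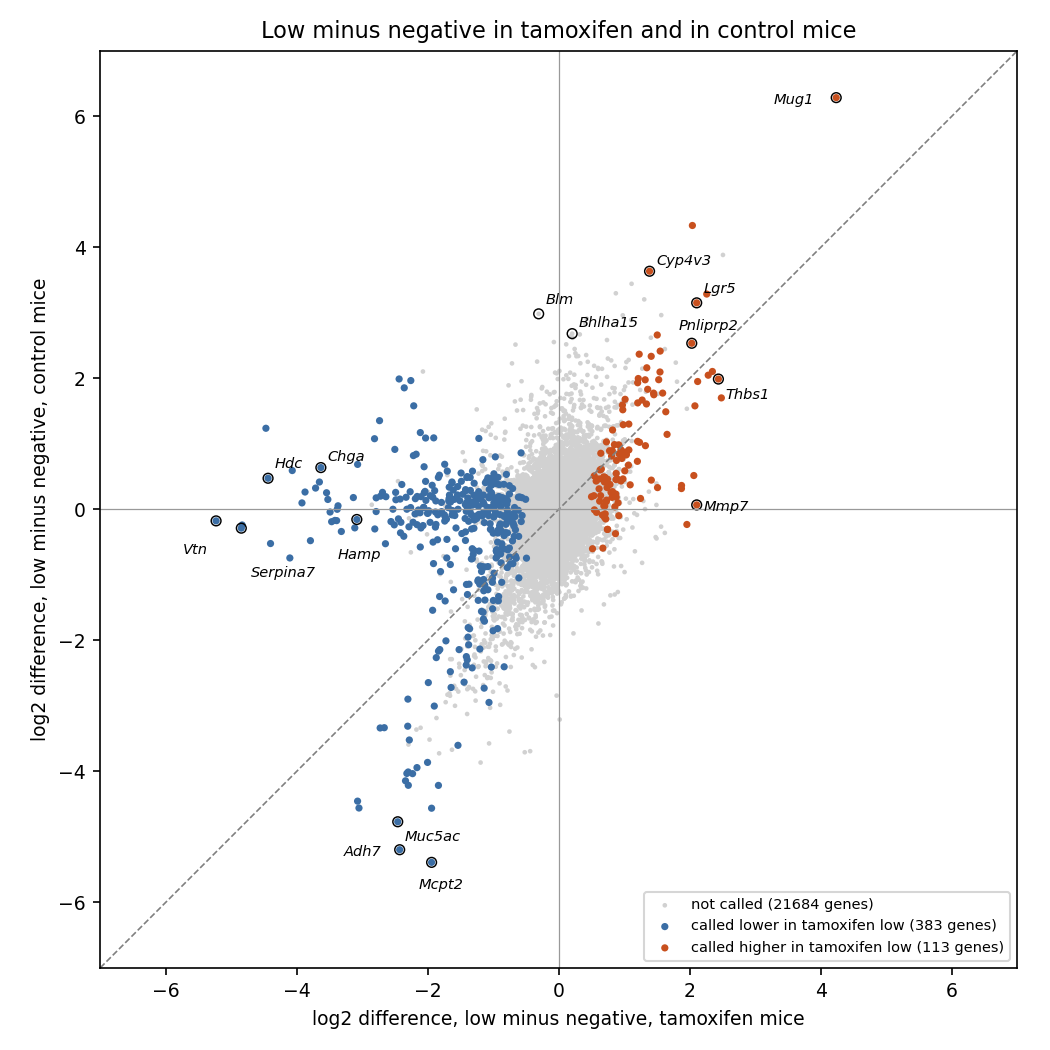
Log2 difference of low minus negative cells in tamoxifen mice (horizontal axis) and in control mice (vertical axis), 1 point per gene over 22180 genes, with genes called lower (383) and higher (113) in tamoxifen mice in colour and equal differences on the dashed line. Hdc, Vtn and Serpina7 lie far left at a control difference near 0, while Muc5ac, Adh7 and Mcpt2 lie below the line and Mug1 at the upper right. Serpina7 averaged under background in control low and control negative cells alike.

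**Figure D4:**
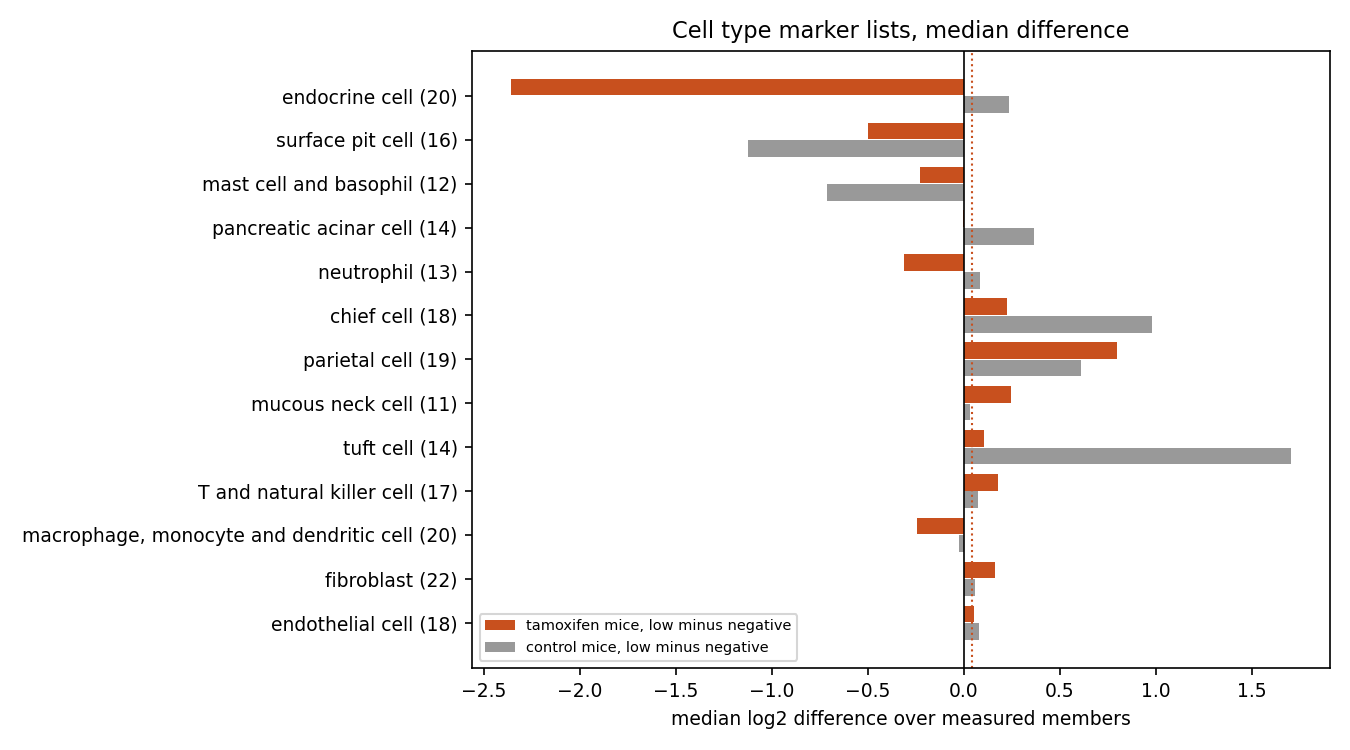
Median log2 difference of low minus negative cells (horizontal axis) over the measured members of 13 cell type marker lists, numbers in brackets giving the members, in tamoxifen mice (upper bar) and control mice (lower bar). The dotted line is the median of all genes in tamoxifen mice, 0.04; the endocrine list stands at -2.36 and 0.24, the surface pit list at -0.50 and -1.12, and the tuft list at 0.10 and 1.70.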

How the data were processed

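RNA was hybridised to 1-colour arrays, biotin-labelled after whole-transcriptome amplification. The deposited values are log2 signal per probe set, made by the authors; the submitters' processing notes name RMA, oligo, limma 3.26.8 and R 3.2.3 without saying which made what. No scanner files were used, and no genome build for the array is given in the sources used here.

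Of 41345 probe sets, 23521 named exactly 1 gene. The row with the highest mean over 21 arrays was kept, giving 22180 genes with no filter on level. Group means were fitted over all 21 arrays with limma 3.58.1 in R 4.3.3 (lmFit, then eBayes, with 15 residual and 5.27 prior degrees of freedom). Tests were two-sided with Benjamini-Hochberg adjustment over all genes, called under 0.05. The fit was tested on simulated data first. Folds are 2 raised to the log2 difference. Where only the dim group lay at background, a fold given as at least a value is a bound set against the background level. The number of arrays limits the precision.

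The comparison, the naming rule and the 49 lists of genes were chosen with earlier results of these data known. Named genes were the 10 largest differences each way among called genes whose arrays did not overlap, leaving out predicted genes and receptor, histone and small RNA families, up to 4 called members of each list each way, a fixed panel, and the 5 largest interactions each way. Alternatives were 2 other scalings, averaging a gene's rows, trend and robust eBayes, array weights, the 2 groups alone, 2 filters on level, a 2-fold minimum, replicate blocks and leaving out each array. Promoter sequences were RefSeq's for GRCm38.p6, matched by symbol.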

Additional observations from a re-analysis of the deposited data

Results flagged for a closer look

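Single arrays that stood apart from the other 3 of their group were looked for among the named genes, where chance marks about 1 group in 20; of 236 groups, 11 were marked. In tamoxifen low cells, replicate 4 read 12.40 for Gast, 5.86 for Tph1 and 11.16 for Reg3g, all above the other low arrays. Low replicate 3 read 6.76 for Ghrl and 1.73 for Gsdmc2, below the others, and 4.66 for Cel and 4.71 for Ptprc, above them. In tamoxifen negative cells, replicate 4 read 11.09 for Chga, below the others, and 3.81 for Gsdmc2, above them. Negative replicate 3 read 5.73 for Anxa8, above the others, and 9.07 for Epcam, below them.

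The low minus negative difference differed between tamoxifen and control mice, by the interaction test of limma at an adjusted p under 0.05, for 28 named genes. Tamoxifen minus control, it was -5.71 for Gprasp2, -5.05 for Vtn, -4.91 for Hdc, -4.59 for Cel, -4.56 for Serpina7, -4.14 for Ahsg and -4.02 for Pappa2. Further negative values were -3.88 for Slc18a2, -3.45 for Ptf1a, -3.36 for Lhfpl5, -3.29 for Blm, -3.28 for Scg5, -2.95 for Cckbr and -2.93 for Hamp. Smaller ones were -2.48 for Bhlha15, -2.25 for Cyp4v3, -2.05 for Syp, -1.77 for Syt7, -1.47 for Sel1l and -1.44 for Hyou1. Positive values were 3.45 for Mcpt2, 3.26 for Anxa3, 3.22 for Gsdmc3, 3.19 for Gsdmc2, 2.38 for Sytl2, 2.04 for Mmp7, 1.88 for Cpa3 and 1.57 for Tpsb2. Hamp, Serpina7 and Mmp7 averaged under background in control low and control negative cells alike, so their values are not exact.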

How the results depend on the processing

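No named gene's called difference changed sign under any alternative run. Of 81 named genes called between low and negative cells, 53 stayed called under every alternative other than the 2-fold minimum and the loss of an array, and 43 stayed called whichever array was left out. Leaving out 1 array gave between 265 and 553 called genes, 47 to 117 higher and 218 to 487 lower. The higher genes numbered 51, 50, 47 and 66 without low replicate 1, low replicate 2, negative replicate 3 and negative replicate 4, and the lower ones 245 and 218 without low replicate 2 and negative replicate 3. The ranges were 437 to 1276 for control low against negative, 71 to 386 for the interaction and 365 to 1118 for tamoxifen high against low. A 2-fold minimum left 52 higher genes, 739 genes in control mice and 368 between high and low cells. Array weights gave 2637 control genes, 499 interactions and 337 genes between high and low cells, and fits on the compared arrays alone gave 1807, 291 and 245. Of the 715 genes called between high and low cells, 45.2% were higher in high cells, against 64.4% with cyclic loess and 55.4% with quantile scaling. Of 28 named interactions, 16 stayed called whichever of 14 arrays was left out. The causes were not tested.

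Whether the numbers in the array titles pair low and negative arrays cannot be settled, since only 3 numbers are shared. Over numbers 2, 4 and 28 the correlations of the arrays' deviations were -0.10, 0.22 and 0.50. Of these 3 low arrays, 1 (number 28) correlated best with the negative array of its own number. Over the 4 Replicate numbers the correlations were 0.13, -0.19, -0.19 and -0.04. With the title number as a fixed replicate block, 657 genes were called, 242 higher and 415 lower. Without a block these were 496, 113 and 383. With the Replicate number as a block 534 were called, and with the title number as a random block 574. Adh7 and Sel1l, called whichever array was left out, had adjusted p of 0.072 and 0.0715 with the fixed title-number block.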
